A study of Rattus norvegicus with 6 samples.

Results

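Leukocyte marker genes are transcripts made by the white blood cells that live in or pass through the liver, and 41 of them were read from whole-genome arrays of rat liver. The members were taken from a list of symbols. Every non-control probe whose RefSeq transcript maps to one of these symbols was collected, and the probe with the highest mean signal stood for its gene. Of the 41 members 37 had a probe and 31 gave a signal clear enough to be kept, out of 27642 genes kept on the arrays. The kept members were Ptprc, which all leukocytes carry, 15 of 18 Kupffer cell and myeloid members, 12 of 16 T and natural killer (NK) cell members and 3 of 6 B and plasma cell members. All 31 were well above background on all 6 arrays.

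The study compared livers of male rats dosed with 400 mg per kg per day of TCEP, tris(2-chloroethyl) phosphate, with livers of male rats that received corn oil. TCEP is used as a flame retardant and plasticiser, and corn oil served as the vehicle. Both groups were Sprague-Dawley rats of the Crl:CD(SD) stock, an outbred stock, bought at 5 weeks of age and kept on the same basal diet. Each group held 3 animals, with 1 liver array per animal. The treatment protocol gives the dosing as 9 weeks for both groups, whereas the series design speaks of 28 days. Whole liver was measured, so the members' signals come from a minority of cells among hepatocytes. Here as in the results that follow, fewer cells of a type and less RNA per cell cannot be told apart.

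Kupffer cells are the resident macrophages of the liver. They line the sinusoids and clear particles, opsonised microbes and aged red cells from portal blood through scavenger, lectin and complement receptors. Recruited neutrophils and monocytes carry calprotectin and integrin genes instead, while liver T and NK cells carry antigen receptor subunits and the granule proteins that kill target cells, and B cells carry the immunoglobulin receptor and its signalling subunits.

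Values are log2 signals relative to the 75th percentile of their array, so 0 is the level below which 75% of the probes lie. Levels of different genes are not set against each other, because probes differ in brightness. On the arrays 57.2% to 64.4% of 61657 probes were well above background. Per the file headers all 3 TCEP arrays were on the same slide and corn oil replicates 1 and 3 on another, while corn oil replicate 2 lay alone on a slide scanned 23 days after the others. Slide and treatment therefore cannot be told apart. Hepatocyte genes, 8 of 8 kept, had median deviations from their 6-array means of -0.11 to 0.02 in TCEP livers and 0.03 to 0.05 in corn oil livers.

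Between TCEP and corn oil livers 0 of the 31 members passed an adjusted p of 0.05 (limma, Benjamini-Hochberg over all genes), against 0 of 27642 genes on the whole array (0%). At an unadjusted p under 0.05 there were also 0 members, where 9.23% of all genes met that mark. In 0 members did the 3 TCEP values lie beyond all 3 corn oil values, against 17.4% of all genes. The mean was higher in TCEP livers for 11 members and lower for 20 (17 and 14 with median centring), while 51.1% of all genes had the higher mean in TCEP livers. This tally turned with single livers: leaving out TCEP replicate 2 gave 19 higher and 12 lower. Among corn oil livers, leaving out replicate 1 gave 7 higher and 24 lower, replicate 2 gave 23 and 8, and replicate 3 gave 18 and 13. The median log2 difference was -0.08 for the Kupffer and myeloid members, 0.0022 for the T and NK members and 0.0073 for the B and plasma members, beside 0.0059 for all genes. The smallest adjusted p of a member was 0.604, for Cd4 (limma, Benjamini-Hochberg). A p that misses the threshold does not show equal levels, and the standard errors of the members' differences ran from 0.093 for Cd3d to 0.81 for Marco.

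**Figure D1:**
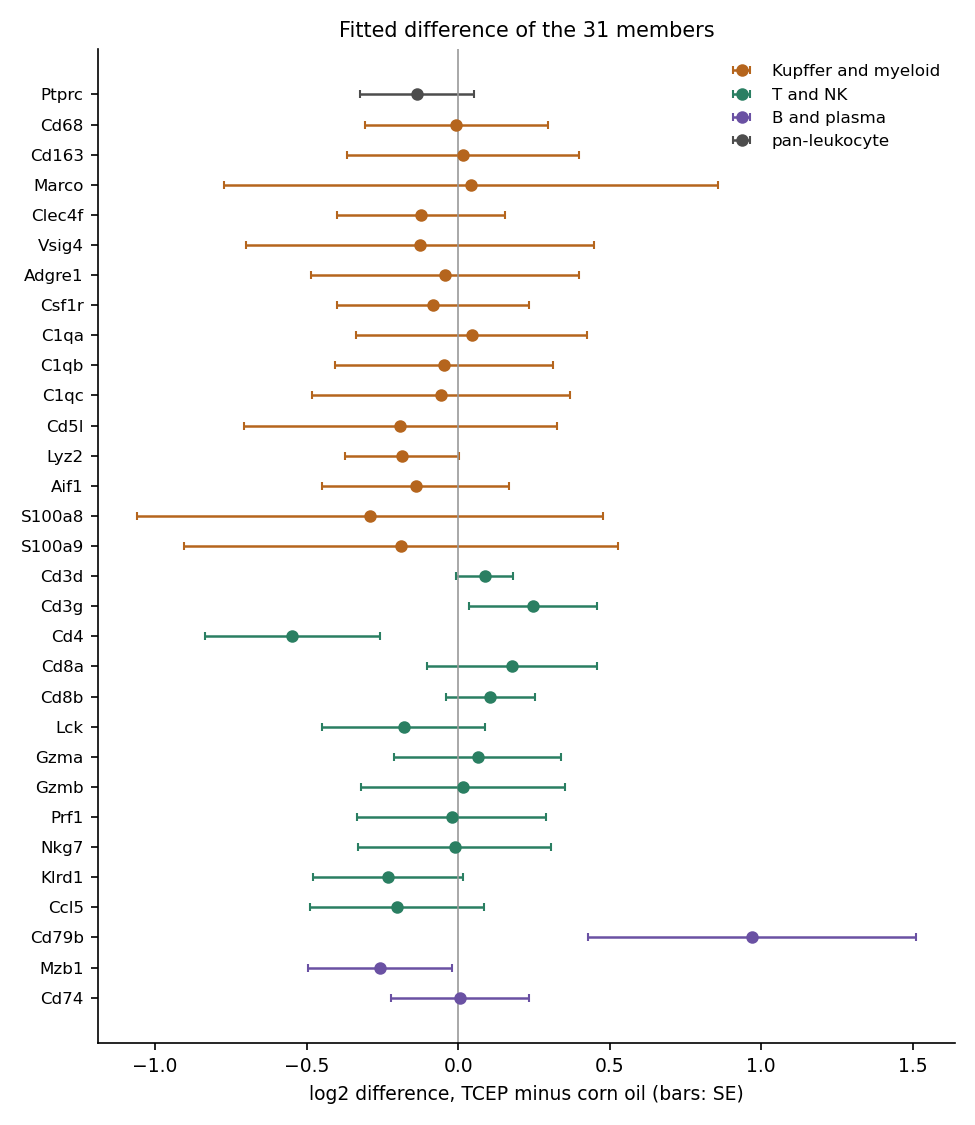
Fitted log2 difference of each of the 31 kept members, TCEP minus corn oil, with bars of 1 standard error (3 livers per group) and colours for the cell class. The points run from -0.55 (Cd4) to 0.97 (Cd79b), and the bars are widest for Marco, S100a8 and S100a9.

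Among the Kupffer and myeloid members the corn oil livers differed from each other far more than the group means did. Complement component C1q, which binds immune complexes and dying cells, is built from the chains C1qa, C1qb and C1qc and is made mainly by macrophages. C1qa had log2 signals of 4.47, 4.15 and 4.43 in TCEP livers and 3.42, 4.57 and 4.92 in corn oil livers. C1qb had 5.76, 5.57 and 5.80 in TCEP livers and 4.91, 6.02 and 6.34 in corn oil livers. C1qc had 2.10, 1.89 and 2.27 in TCEP livers and 1.15, 2.44 and 2.84 in corn oil livers. In all 3 chains the TCEP livers lay close together and inside the span of the corn oil livers, with corn oil replicate 1 lowest and corn oil replicate 3 highest. The differences of the group means were 0.04 ± 0.38 for C1qa, -0.05 ± 0.36 for C1qb and -0.06 ± 0.43 for C1qc (SE), each far smaller than its error.

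The 3 genes are neighbours on chromosome 5 with no other protein-coding gene between them, and their signals moved together from liver to liver. Over the 6 arrays, the deviations from the group means correlated at 0.997 between C1qa and C1qb, 0.997 between C1qb and C1qc and 0.993 between C1qa and C1qc. These correlations describe 6 arrays that share the processing, and most of the spread behind them is that of the corn oil livers. The 300 bases around the transcription starts of C1qb and C1qa, most of them upstream, are shown from RefSeq on assembly GRCr8. Capitals mark the letters GAGGAA on either strand, the core that the myeloid transcription factor PU.1 is known to bind.
C1qb (chr5:154407778-154408077, minus strand): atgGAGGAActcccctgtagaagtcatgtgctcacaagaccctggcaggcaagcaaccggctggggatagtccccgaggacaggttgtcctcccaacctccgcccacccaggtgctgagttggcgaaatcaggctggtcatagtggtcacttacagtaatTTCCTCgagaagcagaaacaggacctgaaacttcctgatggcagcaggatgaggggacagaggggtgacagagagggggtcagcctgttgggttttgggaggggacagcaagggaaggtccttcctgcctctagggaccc
C1qa (chr5:154419884-154420183, minus strand): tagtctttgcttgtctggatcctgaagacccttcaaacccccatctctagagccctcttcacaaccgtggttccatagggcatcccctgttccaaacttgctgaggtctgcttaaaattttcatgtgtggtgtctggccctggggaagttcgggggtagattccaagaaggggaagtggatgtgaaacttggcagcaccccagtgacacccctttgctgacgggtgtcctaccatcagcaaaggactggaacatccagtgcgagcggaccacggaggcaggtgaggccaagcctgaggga

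The promoter stretch of C1qb holds the PU.1 letters at 2 places and that of C1qa at 0. C1qa has 3 matches to TGCTGA, the half-site of the macrophage factors of the MAF family, and C1qb has 1. A link between these letters and the signals was not tested. Marco, a scavenger receptor for particles and bacteria, and Cd5l, a secreted scavenger protein of macrophages, are shown as macrophage genes on other chromosomes with wide corn oil spreads, with the same capitals.
Marco (chr13:34201206-34201505, minus strand): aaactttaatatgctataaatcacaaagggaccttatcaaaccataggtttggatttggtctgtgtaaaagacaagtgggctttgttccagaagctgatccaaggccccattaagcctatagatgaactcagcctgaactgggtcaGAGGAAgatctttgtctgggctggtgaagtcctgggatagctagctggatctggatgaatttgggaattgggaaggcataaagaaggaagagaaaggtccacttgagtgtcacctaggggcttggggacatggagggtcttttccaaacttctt
Cd5l (chr2:175088665-175088964, plus strand): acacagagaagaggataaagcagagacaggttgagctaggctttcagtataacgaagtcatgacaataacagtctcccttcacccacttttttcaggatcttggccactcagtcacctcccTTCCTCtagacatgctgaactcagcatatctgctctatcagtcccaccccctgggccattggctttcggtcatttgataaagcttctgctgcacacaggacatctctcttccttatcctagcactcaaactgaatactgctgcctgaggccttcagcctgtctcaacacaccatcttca

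Marco and Cd5l each hold the PU.1 letters at 1 place. Of the 31 members with an entry in the promoter table, 16 hold GAGGAA, 9 of 15 Kupffer and myeloid members and 4 of 12 T and NK members among them, against 27.6% of 33469 rat promoters of the same length. TGCTGA was found in 11 of the 31, 7 of 15 and 4 of 12, against 18.4%, and the C/EBP letters TTGCNNAA in 4 of the 31, 4 of 15 and 0 of 12, against 10.6%. Both strands were read, and the MAF and C/EBP letters can share bases. A match is a description of the letters in this window, not a site or a cause.

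Marco showed the widest spread of all members in corn oil livers, though not in TCEP livers, where that of S100a8 was the widest (SD 0.76, against 0.60 for Marco). Its log2 signals were -0.02, 0.17 and 1.09 in TCEP livers and -1.35, 0.52 and 1.93 in corn oil livers. Within the corn oil group the highest liver stood 9.73-fold above the lowest, and within the TCEP group 2.16-fold. Cd5l had 2.37, 2.24 and 2.75 in TCEP livers and 1.45, 2.99 and 3.50 in corn oil livers, a span of 1.42-fold in TCEP livers and 4.16-fold in corn oil livers. Vsig4, the complement receptor with which Kupffer cells take up opsonised bacteria, had 0.14, -0.30 and 0.23 in TCEP livers and -1.16, 0.42 and 1.18 in corn oil livers. In each of these 3 genes corn oil replicate 1 was the lowest of all 6 livers and corn oil replicate 3 the highest, so that both extremes were vehicle livers. Their differences of means were 0.04 ± 0.81, -0.19 ± 0.52 and -0.13 ± 0.57 for Marco, Cd5l and Vsig4 (SE).

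Clec4f, a lectin that rodent Kupffer cells carry, had log2 signals of 5.64, 5.63 and 5.85 in TCEP livers and 5.23, 5.92 and 6.34 in corn oil livers. Cd68, a lysosomal glycoprotein of macrophages, had 3.25, 3.04 and 3.14 in TCEP livers and 2.43, 3.47 and 3.54 in corn oil livers. Cd163, the scavenger receptor for haptoglobin and haemoglobin complexes, had 0.72, 1.03 and 0.87 in TCEP livers and -0.04, 1.16 and 1.45 in corn oil livers. The same order of corn oil livers was present in all 3. It was present too in Adgre1, the F4/80 antigen of mouse macrophages, in Csf1r, the receptor for the macrophage growth factors CSF1 and IL-34, and in Aif1, a calcium-binding protein of the macrophage cytoskeleton. These 6 had differences of -0.12 ± 0.28 for Clec4f, -0.0057 ± 0.30 for Cd68, 0.02 ± 0.38 for Cd163, -0.04 ± 0.44 for Adgre1, -0.08 ± 0.32 for Csf1r and -0.14 ± 0.31 for Aif1 (SE).

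**Figure D2:**
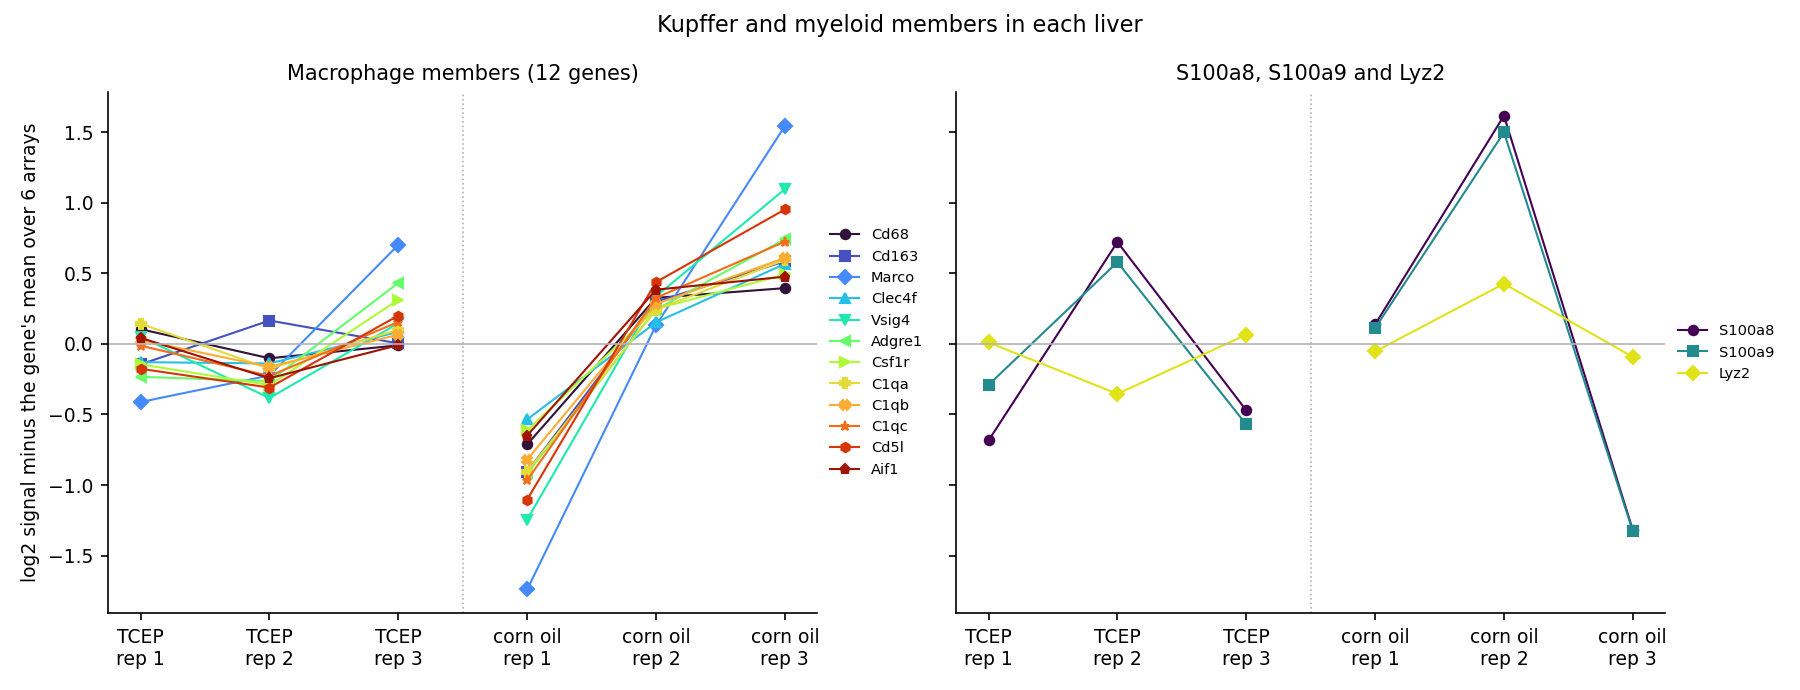
Log2 signal of each Kupffer and myeloid member in each of the 6 livers, minus the gene's mean over the arrays; lines only join the values of a gene. Left, the 12 macrophage members are lowest in corn oil replicate 1 and highest in corn oil replicate 3, with TCEP livers in between; right, S100a8 and S100a9 are highest in corn oil replicate 2 and lowest in corn oil replicate 3.

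These 12 genes, the class without S100a8, S100a9 and Lyz2, are called macrophage members here, a split made after the values were seen. Over the whole class 12 of 15 kept members were lowest in corn oil replicate 1 and highest in corn oil replicate 3 within the corn oil group, against 14.8% of all genes. All 3 TCEP values lay inside the corn oil range in 14 of 15, against 25.1% of all genes. Among the 22 kept probes of the 12 genes, 22 were lowest in corn oil replicate 1, 21 highest in corn oil replicate 3 and 21 had all TCEP values inside the corn oil range. The SD over the 3 livers of a group was 0.10 to 0.60 in TCEP livers and 0.56 to 1.65 in corn oil livers for the 12. The medians were 0.18 in TCEP livers and 0.79 in corn oil livers, beside 0.14 and 0.19 for all genes in the same groups. The SD lay above the 90th percentile of all genes for 1 of the 12 in TCEP livers and for 12 of the 12 in corn oil livers. Over the whole class it did so for 3 of 15 in TCEP livers, S100a8 and S100a9 included, and for 14 of 15 in corn oil livers. Over the 66 pairs of the 12 genes the deviations correlated at 0.838 to 0.997 over the 6 arrays, with a median of 0.954.

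**Figure D3:**
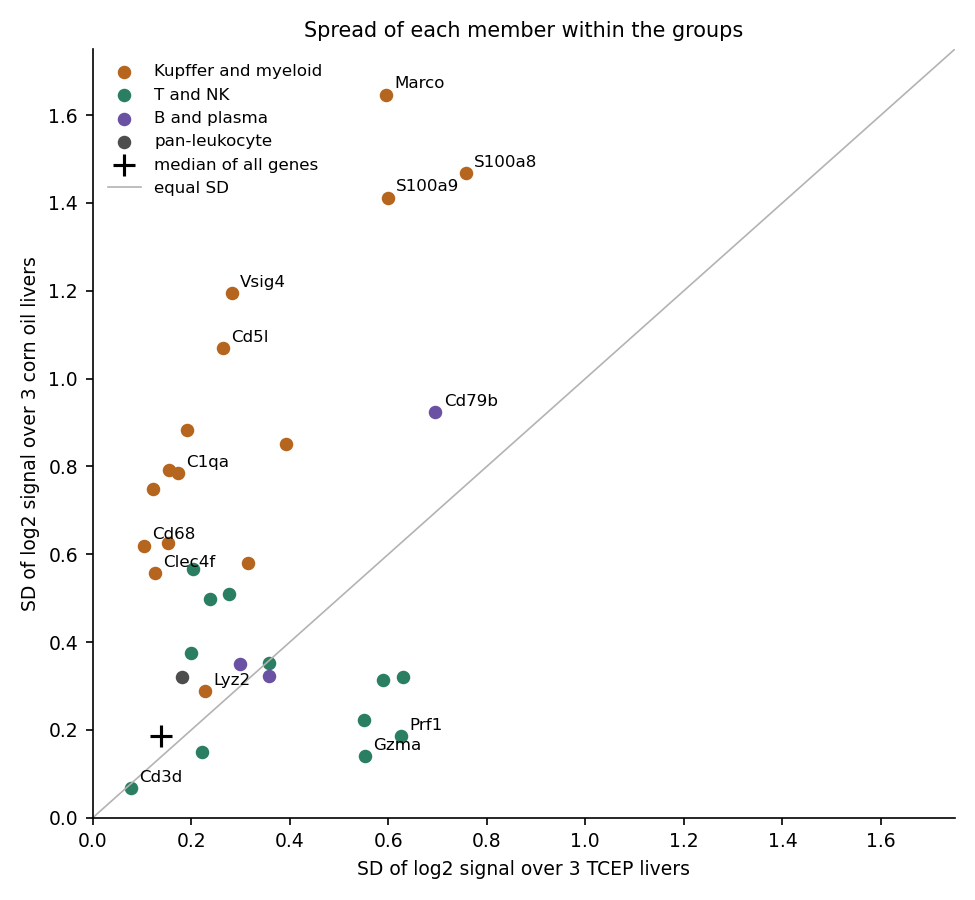
SD of the log2 signal over the 3 TCEP livers (horizontal) and over the 3 corn oil livers (vertical) for each kept member, with equal SD on the grey line and the medians of all genes as a cross (0.14 and 0.19). Macrophage members lie high above the line, and the granule genes Gzma and Prf1 lie below it.

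The group means of the macrophage members depended on which corn oil livers were included. Without corn oil replicate 1 the median of the 15 Kupffer and myeloid members was -0.43, with 0 of 15 higher in TCEP livers, and 9 of the 31 members had an unadjusted p under 0.05, against 8.71% of all genes. These 9 were Cd68, Cd163, Vsig4, C1qb, C1qc, Cd5l, Aif1 and Cd4, lower in TCEP livers, and Cd79b, higher; the smallest adjusted p was 0.395 (limma, Benjamini-Hochberg), so 0 were called. Without corn oil replicate 3 the median was 0.24, with 12 of 15 higher in TCEP livers. Without corn oil replicate 2, the array scanned later, it was 0.08. The low and the high corn oil liver shared a slide and a scan day. They had 61.9% (replicate 1) and 63.7% (replicate 3) of probes well above background, and hepatocyte medians of 0.05 and 0.03. Single hepatocyte genes spread more than these medians. Of the 8, 2 had the corn oil order of the macrophage members, against 14.8% of all genes. These were Apoa1, with 8.14, 8.65 and 8.90 in corn oil livers, and Cps1, with 3.75, 3.76 and 4.20. The part of these measures in the spread was not tested.

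Calprotectin, the calcium-binding pair S100a8 and S100a9 of neutrophils and monocytes, followed another order. S100a8 had log2 signals of -1.32, 0.09 and -1.11 in TCEP livers and -0.50, 0.98 and -1.95 in corn oil livers. S100a9 had -0.10, 0.77 and -0.38 in TCEP livers and 0.30, 1.69 and -1.14 in corn oil livers. Both were highest in corn oil replicate 2 and lowest in corn oil replicate 3, the liver where the macrophage members peaked, and within TCEP livers both were highest in replicate 2. The groups overlapped, and the differences were -0.29 ± 0.77 for S100a8 and -0.19 ± 0.71 for S100a9 (SE). Without corn oil replicate 2 these were 0.45 and 0.51, and without corn oil replicate 3 they were -1.02 and -0.90. The pair, neighbours on chromosome 2, had a correlation of deviations of 0.984, while all 24 of its correlations with macrophage members were below 0 (median -0.29, 6 arrays). Of 12 other neutrophil genes listed, 3 were kept (Camp, Fcnb and Lcn2), and 1 of these had a higher mean in TCEP livers. Unlike the pair, all 3 were highest in replicate 3 among TCEP livers. Among corn oil livers 2 of the 3 were highest in replicate 2 and 2 were lowest in replicate 3. Only Lcn2 had both, while Camp was highest and Fcnb lowest in corn oil replicate 1.
S100a9 (chr2:178490573-178490872, minus strand), shown because the pair moved apart from the macrophage genes, with the PU.1 letters in capitals: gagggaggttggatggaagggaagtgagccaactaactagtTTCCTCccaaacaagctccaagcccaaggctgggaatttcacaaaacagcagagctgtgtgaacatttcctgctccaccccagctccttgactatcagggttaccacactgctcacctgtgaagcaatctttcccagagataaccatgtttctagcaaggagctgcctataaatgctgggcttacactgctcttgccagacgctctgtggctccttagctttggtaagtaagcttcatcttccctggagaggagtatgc

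Lyz2, the lysozyme of macrophages and neutrophils, had log2 signals of 4.62, 4.25 and 4.67 in TCEP livers and 4.55, 5.03 and 4.51 in corn oil livers, with a difference of -0.19 ± 0.19 (SE). It spread least among the Kupffer and myeloid members in corn oil livers. Itgam, the alpha chain of the complement receptor CR3, and Ccr2, the chemokine receptor of recruited monocytes, were well above background on 0 of 6 arrays. Timd4, a phosphatidylserine receptor of resident macrophages, was not matched to a probe.

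Members of the T cell receptor complex gave small differences. Cd3d had log2 signals of -0.07, -0.18 and -0.22 in TCEP livers and -0.19, -0.23 and -0.32 in corn oil livers, and had the smallest spread of all members. Cd3g had -1.50, -1.58 and -1.87 in TCEP livers and -2.31, -1.58 and -1.80 in corn oil livers. Cd3e, another chain of the complex whose gene lies next to Cd3d on chromosome 8, was well above background on 0 arrays, with log2 signals of -5.23, -5.92 and -6.34 in TCEP livers and -7.14, -6.10 and -6.61 in corn oil livers. The groups overlapped in both kept chains, with differences of 0.09 ± 0.09 for Cd3d and 0.25 ± 0.21 for Cd3g (SE).

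Cd4, the coreceptor of helper T cells, which rat macrophages also carry, had the largest negative difference of the members. It had log2 signals of -2.73, -3.12 and -2.83 in TCEP livers and -2.996, -1.96 and -2.08 in corn oil livers. Corn oil replicate 1 lay among the TCEP livers and the other corn oil livers above them. The difference was -0.55 ± 0.29 (SE; adjusted p = 0.604 in limma with Benjamini-Hochberg), and -0.87 without corn oil replicate 1. The coreceptor chains of killer T cells, Cd8a and Cd8b, had differences of 0.18 ± 0.28 and 0.11 ± 0.15, and the receptor-proximal kinase Lck had -0.18 ± 0.27 (SE). Cd5, an inhibitory receptor, and Klrb1, an NK cell receptor, were well above background on 0 arrays, and Cd2, an adhesion receptor of T and NK cells, on 1 array, TCEP replicate 1. With Itgam, Ccr2 and Cd3e they make up the 6 members with a probe that were too dim to be kept, with log2 signals of -7.63 to -4.20.

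The granule and cytotoxic members varied more among TCEP livers than among corn oil livers. Gzma, a granule protease of killer T and NK cells, had log2 signals of 1.04, 0.10 and 0.06 in TCEP livers and 0.26, 0.50 and 0.25 in corn oil livers. Prf1, the pore-forming perforin, had 0.17, -1.07 and -0.31 in TCEP livers and -0.44, -0.17 and -0.53 in corn oil livers. Nkg7, a granule membrane protein, had 0.32, -0.85 and -0.29 in TCEP livers and -0.30, 0.07 and -0.55 in corn oil livers. In all 3 genes TCEP replicate 1 was the highest of the 6 livers. Ccl5, a chemokine that these cells release, had 3.40, 2.30 and 2.82 in TCEP livers and 3.10, 3.23 and 2.79 in corn oil livers. Gzmb, the protease that sets off caspases in target cells, had -2.03, -3.14 and -3.10 in TCEP livers and -2.40, -2.94 and -2.97 in corn oil livers. TCEP replicate 1 was again the highest liver for both. Klrd1, the CD94 receptor chain of NK cells, had a difference of -0.23 ± 0.25 (SE), and the other 5 had differences of -0.20 to 0.06 with standard errors of 0.28 to 0.34.

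Within the TCEP group replicate 1 was the highest in 12 of 12 T and NK members, against 25.5% of all genes. The count was 9 of 12 with normexp background correction, 11 of 12 with a gene's probes averaged and 15 of 16 with no filter on dim probes. For the 6 cytotoxic members, a subset named after the values were seen, the SD was 0.36 to 0.63 in TCEP livers and 0.14 to 0.35 in corn oil livers, and it was the larger in TCEP livers for all 6. Over all 12 T and NK members the median SD was 0.317 in both groups, and 4 of 12 had the larger SD in corn oil livers, as did 62.5% of all genes. For the 6 cytotoxic members the 15 pairwise correlations of deviations ran from 0.302 to 0.983 over the 6 arrays, with a median of 0.813. Among them were 0.788 between Gzma and Prf1, 0.983 between Ccl5 and Nkg7 and 0.967 between Prf1 and Nkg7. The 10 pairs of Cd3d, Cd3g, Cd8a, Cd8b and Lck ran from -0.0574 to 0.923, with a median of 0.324. Between cytotoxic and macrophage members the correlations went both ways, from -0.59 to 0.582 over 72 pairs, with 38 above 0. TCEP replicate 1 also had the most probes well above background, 64.4%, and the part of this in the pattern was not tested. Without TCEP replicate 1 the median difference of the 12 T and NK members was -0.31, against 0.0022 with it.

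**Figure D4:**
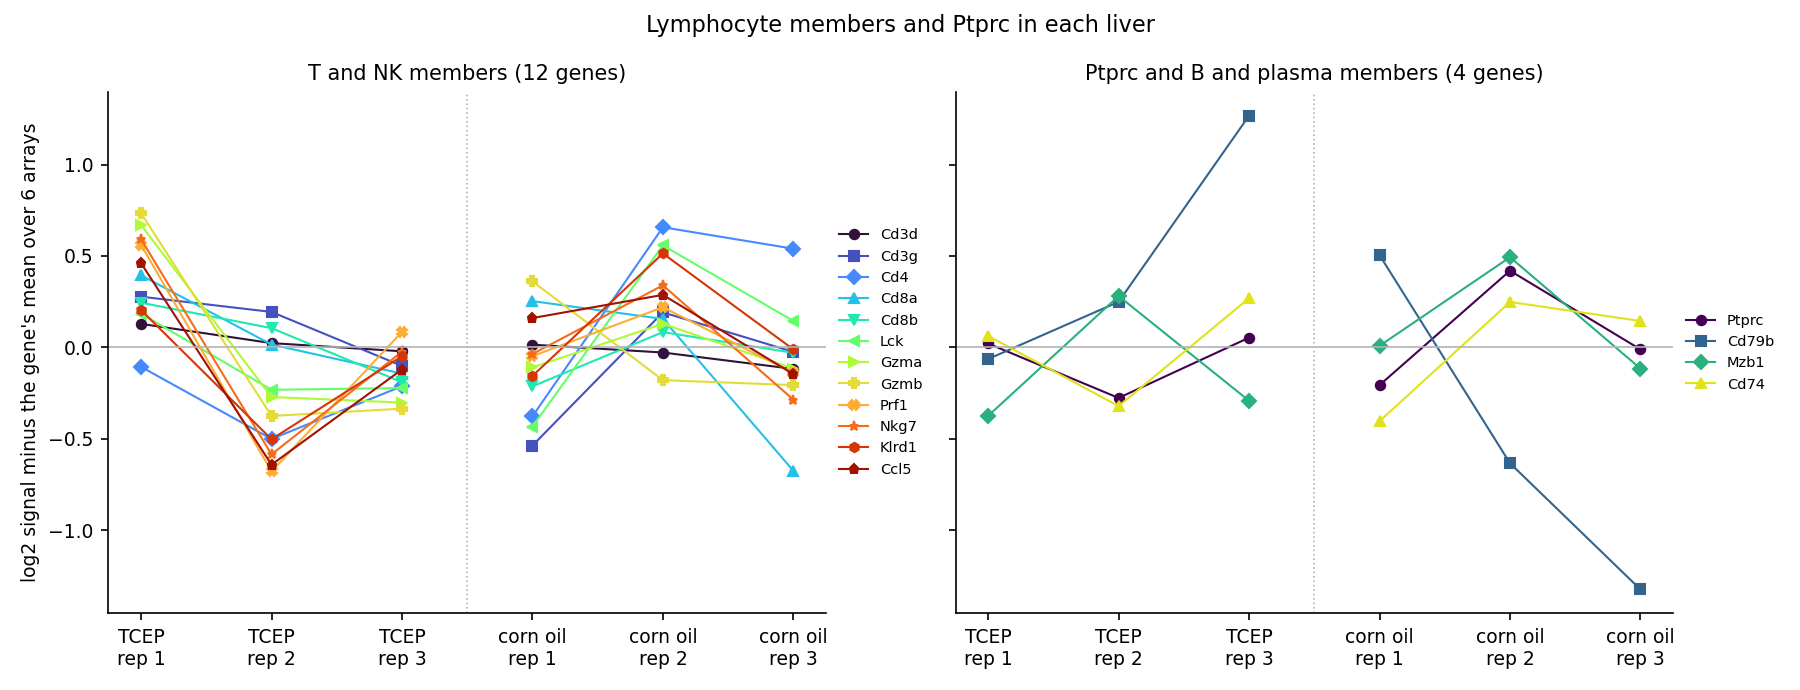
Log2 signal of each T and NK member (left) and of Ptprc and the B and plasma members (right) in each liver, minus the gene's mean over the 6 arrays; lines only join the values of a gene. Most T and NK members are high in TCEP replicate 1, and Cd79b is highest in TCEP replicate 3 and lowest in corn oil replicate 3.

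Of the B and plasma members, Cd79b had the largest positive difference among all members. Cd79b, a signalling subunit of the B cell receptor, had log2 signals of -2.61, -2.30 and -1.28 in TCEP livers and -2.05, -3.18 and -3.87 in corn oil livers. Corn oil replicate 1 lay above 2 of the TCEP livers, so the groups overlapped. The difference was 0.97 ± 0.54 (SE; adjusted p = 0.617 in limma with Benjamini-Hochberg), and it was 0.55 to 1.46 over all alternatives. Its partner chain Cd79a, the B cell surface protein Ms4a1 and the joining chain of secreted antibodies, Jchain, were not matched to a probe. Mzb1, a chaperone of antibody assembly in plasma and marginal zone B cells, had -4.56, -3.91 and -4.48 in TCEP livers and -4.18, -3.69 and -4.31 in corn oil livers, a difference of -0.26 ± 0.24 (SE). Cd74, the invariant chain of MHC class II, which macrophages and dendritic cells make as well, had 3.53, 3.14 and 3.73 in TCEP livers and 3.06, 3.71 and 3.61 in corn oil livers, a difference of 0.0073 ± 0.23 (SE). The 3 members thus shared neither direction nor order of livers.

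Ptprc, the phosphatase CD45 on all leukocytes, had log2 signals of 0.27, -0.02 and 0.31 in TCEP livers and 0.05, 0.67 and 0.24 in corn oil livers. The groups overlapped, with a difference of -0.13 ± 0.19 (SE). Over its 5 kept probes the difference ran from -0.60 to -0.13, the probe shown having the smallest, and averaging the probes gave -0.31 ± 0.17 (SE). On the probe shown, corn oil replicate 2 was the highest of the 6 livers and TCEP replicate 2 the lowest. Of the 6 cytotoxic members, 5 were likewise highest in corn oil replicate 2 among corn oil livers and 5 lowest in TCEP replicate 2 among TCEP livers. Within the TCEP group all 6 were highest in replicate 1, whereas the probe shown for Ptprc was highest in replicate 3. The other kept probes of Ptprc were dimmer and, like the cytotoxic members, highest in TCEP replicate 1 within that group (-2.19, -3.33, -3.20 and -2.14).

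Further genes, in lists that do not overlap the members, were read for comparison, and 0 of them passed an adjusted p of 0.05 (limma, Benjamini-Hochberg). The lists hold more genes of the members' cell types, and MHC class II, chemokine, cytokine and adhesion genes. They also hold dendritic cell, mast cell, endothelial, erythroid, platelet and hepatocyte genes. At an unadjusted p under 0.05 there were 3 of 114, Irf8, Il1a and Cxcl13, which is 2.63% against 9.23% of all genes. The groups did not overlap in 8 of the 114, or 7.02% against 17.4% of all genes, so both shares lay below those of the whole array. Of these 8 genes 2 were hepatocyte genes, so the shares are not those of leukocyte genes alone. Of 19 other macrophage genes kept, 2 had a higher mean in TCEP livers (median difference -0.16), and 10 shared the corn oil order of the macrophage members. Of 7 genes of the liver sinusoidal endothelium, the lining in which Kupffer cells sit, 6 shared that order, with smaller median deviations of -0.21, 0.05 and 0.19 in corn oil livers against -0.91, 0.29 and 0.60 for the macrophage members. Erythroid and platelet genes ran otherwise, with 8 of 8 lowest in corn oil replicate 3 among corn oil livers, against 38% of all genes. Of 17 other T and NK genes 6 had a higher mean in TCEP livers (median -0.09) and 10 were highest in TCEP replicate 1 among TCEP livers. Of 11 other B and plasma genes 9 had a higher mean in TCEP livers (median 0.44). The members' tally of higher and lower means turned with single livers. What leaving out a liver does to the tallies of these lists was not tested.

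**Figure D5:**
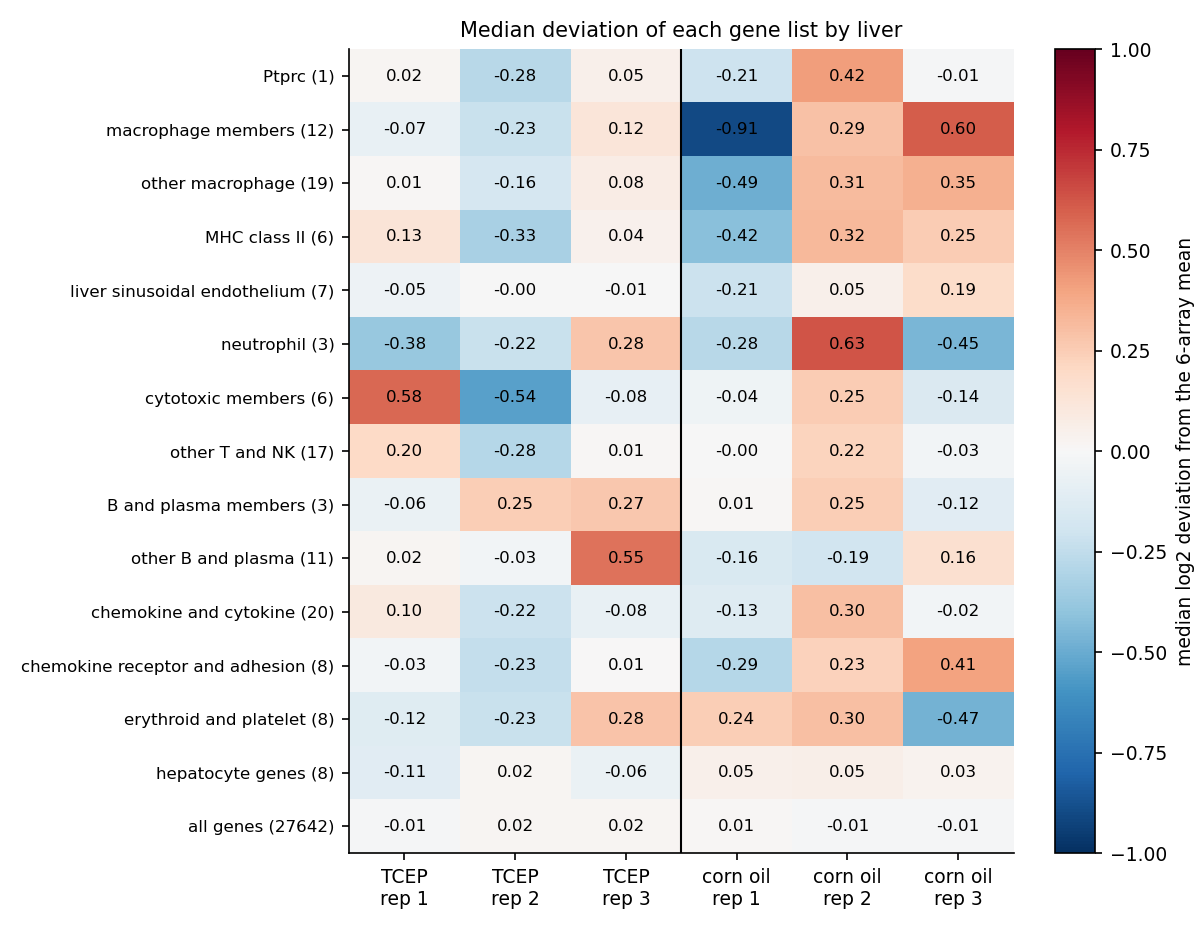
Median over each gene list (rows, number of kept genes in brackets) of the deviation of the log2 signal from the gene's mean over the 6 arrays, for each liver (columns), with colour and printed value. The macrophage members have -0.91 in corn oil replicate 1 and 0.60 in corn oil replicate 3, while the medians of the hepatocyte genes stay between -0.11 and 0.05. Single genes of a list can spread more than its median.

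Chemokine and cytokine genes had a lower mean in TCEP livers for 15 of 20, with a median of -0.14. Of the 3 dendritic cell genes kept, Clec9a, Zbtb46 and Irf8, all had a lower mean in TCEP livers. For these tallies too, leaving out a liver was not tested. Irf8, a transcription factor of dendritic cells and monocytes, had log2 signals of -4.26, -4.24 and -4.08 in TCEP livers and -3.86, -3.52 and -3.66 in corn oil livers. Its groups did not overlap, with a difference of -0.51 ± 0.12 (SE; adjusted p = 0.447 in limma with Benjamini-Hochberg). The cytokine gene Il1a likewise had non-overlapping groups, with 0.96, 0.85 and 1.04 in TCEP livers and 1.34, 2.00 and 1.24 in corn oil livers and a difference of -0.58 ± 0.21 (SE). Neither passed the threshold over all genes.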

How the data were processed

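Liver RNA was measured on Agilent 1-colour arrays after linear amplification with Cy3, per the labels' protocols. The authors' software for reading the spots was Feature Extraction, version 10.7.1.1 per the file headers and 10.7 per the submitters' processing notes. The deposited scanner files hold linear intensities per spot. In the deposited value table each entry is a ratio, the processed signal over its array's 75th percentile, as read from the values (within 0.00269 log2 units of the scanner signal where that exceeded 100), on a linear scale with no centring of genes and column medians of 0.0953 to 0.103. Further normalization is not given in the sources used here.

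Values were computed from the processed signal of each spot on the log2 scale, less the 75th percentile of the array's non-control probes. This left out 1319 control spots; 64 spots with outlier flags were set to missing and 5 saturated spots kept. Probes well above background in every array of either group were kept (37043 probes). Names came from a RefSeq table of assembly GRCr8 by unversioned accession (27460 probes matched; 34197 kept the design's name), and each name took its probe with the highest mean (27642 names, called genes, 10982 with a symbol). The design names an older build, so no probe coordinates are given. TCEP was compared with corn oil in limma 3.58.1 (R 4.3.3; lmFit, eBayes, two-sided, Benjamini-Hochberg over all genes, threshold 0.05); the fit was tested on simulated data.

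The treatment label gave the groups and the titles gave the replicate numbers. Replicates were taken as animals because the protocol speaks of 3 animals per group. Same-numbered arrays had deviations that correlated at -0.0483, -0.165 and -0.015, and no label pairs the samples, so the numbers were not taken as pairs. Such correlations show no shared deviations by number but cannot show that the animals were unpaired. The members and all lists were chosen with earlier results of these data known. Named with all values were the 4 brightest members of a class, the 2 with the largest difference, subunits of C1q, CD3 and CD79 and members with a sample far from its group. From other lists up to 2 genes with non-overlapping groups and an unadjusted p under 0.05 could be named. Counts of members by order of livers were also added after the values were seen. Alternatives were quantile normalization, median centring, normexp with an offset of 50 (on the median signal, since no mean signal column was used here), the deposited table, no filter, a stricter filter (all 6 arrays), averaging a gene's probes, a robust eBayes with trend, a random block for slide, a replicate block, flagged spots kept, the first scan day alone and leaving out each array. The number of arrays limits the precision.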

Additional observations from a re-analysis of the deposited data

How the results depend on the processing

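In all 18 alternatives 0 members and 0 genes passed the threshold, and the smallest adjusted p over all genes ranged from 0.057 (without corn oil replicate 3) to 0.716 (limma, Benjamini-Hochberg). At an unadjusted p under 0.05 (limma) there were 9 of 31 members without corn oil replicate 1, against 8.71% of all genes. With no filter there was 1 of 37 (Ccr2), against 2700 of 45877 genes. The other alternatives had 0 members, while 1610 to 3221 of all genes met that mark. With the replicate block, which no label or check of the pairing bears out, 0 members passed, the Kupffer and myeloid median was -0.08 and no call changed. With median centring all genes shifted to a median of 0.06, and 1 member, Cd3d, had groups that did not overlap (19.1% of all genes). With no filter on dim probes it was also 1, Ccr2, which was not well above background (13.7% of all genes). Lyz2, Cd3g, Cd4, Klrd1, Cd79b and Mzb1 kept their sign in all 18, while the other 25 kept members changed sign at least once. With an array left out, the changed values reached as far from 0 as -0.82 for Marco and 0.51 for S100a9. For each change the cause was not tested. Probes of 5 of the 13 members with several kept probes (Cd163, C1qa, Aif1, Cd8b and Gzmb) differed in sign.

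The log2 differences that changed sign with quantile normalization were -0.021 for C1qa, 0.0011 for Nkg7 and -0.034 for Cd74. With median centring they were 0.052 for Cd68, 0.014 for Adgre1, 0.011 for C1qb, 0.0015 for C1qc, 0.036 for Prf1 and 0.046 for Nkg7. With normexp background correction they were 0.012 for Ptprc, 0.063 for Cd68, 0.041 for C1qb, -0.0048 for Cd3d, -0.017 for Cd8b, 0.0011 for Prf1 and 0.043 for Nkg7. The mean over probes gave -0.22 for Cd163 and -0.038 for Gzmb, and slide as a random block 0.0010 for Cd68. Within the first scan day, which equals leaving out corn oil replicate 2, they were 0.041 for Ptprc, 0.16 for Cd68, 0.012 for Vsig4, 0.066 for Adgre1, 0.019 for Csf1r, 0.082 for C1qb, 0.092 for C1qc, 0.017 for Aif1, 0.45 for S100a8, 0.51 for S100a9, 0.054 for Lck, -0.069 for Gzmb, 0.083 for Prf1 and 0.16 for Nkg7.

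With 1 array left out, the T and NK median ran from -0.31 to 0.15 and the B and plasma median from -0.19 to 0.17. The Kupffer and myeloid median ran from -0.43 to 0.24. Among macrophage members the lowest value came without corn oil replicate 1 and the highest without corn oil replicate 3: -0.36 to 0.19 for Cd68, -0.43 to 0.31 for Cd163, -0.82 to 0.83 for Marco, -0.42 to 0.13 for Clec4f, -0.78 to 0.39 for Vsig4, -0.51 to 0.32 for Adgre1, -0.41 to 0.14 for Csf1r, -0.40 to 0.35 for C1qa, -0.47 to 0.25 for C1qb, -0.55 to 0.29 for C1qc, -0.79 to 0.24 for Cd5l and -0.50 to 0.063 for Aif1. The ranges were -1.02 to 0.45 for S100a8, -0.90 to 0.51 for S100a9, -0.27 to 0.041 for Ptprc, -0.44 to 0.054 for Lck, -0.12 to 0.35 for Cd8a and -0.19 to 0.17 for Cd74. For granule genes the lowest value came without TCEP replicate 1: -0.25 to 0.23 for Gzma, -0.35 to 0.21 for Gzmb, -0.31 to 0.31 for Prf1, -0.31 to 0.28 for Nkg7 and -0.48 to 0.070 for Ccl5. With 3 arrays per group, and 2 in 1 group when an array is left out, differences of this size cannot be separated from the spread between livers.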
